A study of Bubalus bubalis with 6 samples.

Results

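The epithelial miRNAs examined here were the miR-200 family (miR-200a, miR-200b, miR-200c, miR-141 and miR-429), miR-205 and miR-375. They were chosen by name from the table of 273 miRNAs that the authors deposited, with the bovine prefix bta removed and any arm suffix accepted. Of the 8 names sought, 7 had a row, each without an arm suffix; miR-203 had none and is not analysed here. The samples were cell-free saliva of 3 healthy Murrah buffaloes (Bubalus bubalis), labelled wildtype. Each animal was sampled once at estrus, when a female is receptive to mating and close to ovulation, and once at diestrus, when a corpus luteum secretes progesterone. The 6 small RNA libraries thus formed 3 pairs, and the replicate number below is also the animal number. The study asked which salivary miRNAs differ between these phases.

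A miRNA guides repression of mRNAs through pairing of its seed, the bases near its 5′ end. The miR-200 family is known from epithelial cells, where it represses the transcription factors ZEB1 and ZEB2 and so helps to keep E-cadherin expressed; those factors in turn repress the miR-200 genes. The family is encoded in a pair of clusters, one with miR-200b, miR-200a and miR-429 and the other with miR-200c and miR-141. Its seeds form a pair of groups that cut across the clusters, miR-200b, miR-200c and miR-429 in one and miR-200a and miR-141 in the other. miR-205 is abundant in stratified epithelia and also targets ZEB1 and ZEB2. miR-375 is best known from pancreatic islets, where it restrains insulin secretion, and is also found in glandular epithelia.

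The deposited values are counts divided by 1 size factor per library. They were whole multiples of 1 step in each column, so reads could be read back, and a read below is such a counted unit. Estrus libraries held 6749 to 27036 reads and diestrus libraries 3015 to 5548, so depth and phase cannot be told apart. A floor of 3 reads corresponded to 0.0111% to 0.0445% of an estrus library and to 0.0541% to 0.0995% of a diestrus library. Intervals on shares of reads are exact 95% binomial intervals and cover counting error only. miR-1246, the most abundant miRNA in the table, took 1.20% to 20.0% of estrus reads and 55.0% to 76.2% of diestrus reads. It thus moved the shares of the miRNAs described here with phase, and shares without it are given where they change the reading. With miR-1246 left out of the total, the floor of 3 reads was 0.418%, 0.120% and 0.225% in diestrus replicates 1, 2 and 3. In such bulk samples, the number of cells that release RNA and the RNA released per cell cannot be told apart.

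Nearly all reads of these miRNAs came from a pair of estrus libraries. The 7 miRNAs together had 186, 11 and 2543 reads in estrus replicates 1, 2 and 3, and 8, 14 and 18 reads in diestrus replicates 1, 2 and 3. Estrus replicate 3 alone held 91.5% of their 2780 reads. It is also the library whose sample description carries the word Repl, which the other 5 lack and whose meaning is not given in the sources used here. As shares, these were 1.10% (0.950% to 1.27%), 0.163% (0.0814% to 0.291%) and 9.41% (9.06% to 9.76%) at estrus. At diestrus they were 0.265% (0.115% to 0.522%), 0.252% (0.138% to 0.423%) and 0.356% (0.211% to 0.562%). The phases overlapped, since estrus replicate 2 was the lowest of the 6 libraries while the other estrus libraries were the highest. Estrus libraries averaged 3.56% ± 5.09 and diestrus libraries 0.291% ± 0.0565 (SD, n = 3 per phase). The means differed by 3.27 percentage points, less than the SD at estrus. Without estrus replicate 3 the difference was 0.341 percentage points. With miR-1246 left out of the total, the share in animal 1 was 1.12% at both phases, in animal 2 it was 0.204% at estrus and 0.560% at diestrus, and in animal 3 it was 9.58% and 1.35%.

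**Figure D1:**
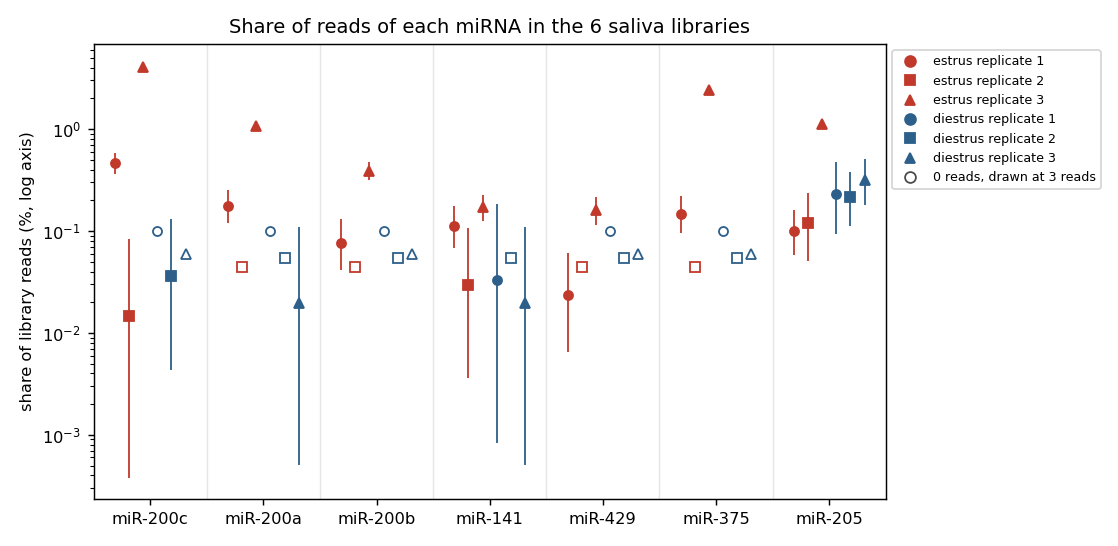
Share of library reads (%, log axis) of each of the 7 miRNAs in the 6 libraries; bars are exact 95% binomial intervals, red marks estrus, blue marks diestrus, and open symbols are libraries with 0 reads, drawn at the floor of 3 reads. Estrus replicate 3 (red triangles) is the highest library for each miRNA, and miR-205 is the miRNA with a clear signal at diestrus.

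Setting miR-205 apart, a split made after the values were seen, the other 6 miRNAs had 1, 2 and 2 reads in the diestrus libraries and 169, 3 and 2238 reads in the estrus libraries. At diestrus, miR-205 therefore made up 87.5%, 85.7% and 88.9% of the reads of the 7 miRNAs. It made up 72.7% of them in estrus replicate 2, but 9.14% in estrus replicate 1 and 12.0% in estrus replicate 3. By this composition, estrus replicate 2 resembled the diestrus libraries and not the other estrus libraries. All 7 miRNAs had at least 3 reads in estrus replicates 1 and 3, against 1 of 7, miR-205, in each of the other 4 libraries. If each library were drawn down to 3015 reads, the depth of the smallest, 6.40 of the 7 would be expected to have at least 1 read, a looser criterion than 3 reads, in estrus replicate 1 and 6.99 in estrus replicate 3. The expected number was 2.13 in estrus replicate 2 and 1.79 to 2.19 in the diestrus libraries. This matches total reads only: in diestrus replicate 1, miR-1246 left 717 reads for all other miRNAs, against 16672 and 26549 in estrus replicates 1 and 3.

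miR-200c, from the cluster with miR-141, was the most abundant of the family. Its normalized values were 30.7, 1.81 and 196.7 in estrus replicates 1, 2 and 3, and 0, 3.26 and 0 in diestrus replicates 1, 2 and 3. The values rested on 78, 1 and 1093 estrus reads and on 0, 2 and 0 diestrus reads. It was high in estrus replicates 1 and 3, where it ranked 21st and 5th by reads, and estrus replicate 2 lay within the range of the diestrus libraries. Within animals, its share of reads at estrus was 4.65-fold the diestrus floor in animal 1 and 68.1-fold the floor in animal 3. These folds leave counting error aside. In animal 2 its share was 0.0148% (0.000375% to 0.0825%) at estrus and 0.0360% (0.00437% to 0.130%) at diestrus, a difference not detectable at this depth. With miR-1246 left out of the total, the estrus share in animal 1 was 0.468%, just above the diestrus floor of 0.418%. In animal 3 the estrus share was then 4.12% against a floor of 0.225%, a far smaller fold than on the full total.

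miR-200c had the largest positive change of the 58 miRNAs tested. It passed the filter through estrus replicates 1 and 3, so a large positive change was built in, and its rank and p-value support nothing. Levels were compared with limma on log2(value + 1) for the miRNAs with a mean of at least 5, and changes are estrus minus diestrus on that scale, where the pseudocount shrinks changes of low miRNAs. The change of miR-200c was 4.00 with a standard error of 1.58 (95% interval 0.89 to 7.12), its unadjusted p-value was 0.0119, and it did not pass after Benjamini-Hochberg adjustment over the 58 miRNAs (limma, adjusted p = 0.258). By animal the differences were 4.99, -0.60 and 7.63, so 2 of 3 animals had the higher value at estrus. The change was 2.54 without estrus replicate 3. It was 5.61 without estrus replicate 2, the estrus library in which it was lowest, and then passed (limma, adjusted p = 0.00803). Over 21 alternatives its adjusted p-value ranged from 0.00595 to 0.901.

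The other member of that cluster, miR-141, shares its seed group with miR-200a. Its normalized values were 7.49, 3.62 and 8.28 at estrus and 2.85, 0 and 1.72 at diestrus, from 19, 2 and 46 reads and from 1, 0 and 1 reads. It was the 1 miRNA of the 7 whose normalized values did not overlap between phases, where 6.59% of all 273 listed miRNAs did not. On shares of reads, where 6.96% of the 273 did not overlap, the phases did, since estrus replicate 2, at 0.0296%, lay below diestrus replicate 1, at 0.0332%. Without miR-1246 in the total, the share in animal 1 was 0.114% at estrus and 0.139% at diestrus. Its mean of 3.99 was under the filter, and it was not tested in the fit on 58 miRNAs. miR-141 was also the most even of the 7 between the 2 high libraries. Its share in estrus replicate 3 was 1.51 times that in estrus replicate 1 (counting interval 0.868 to 2.73), while for the other 6 the ratio ran from 5.04 for miR-200b to 16.5 for miR-375. Over 51 tested miRNAs with at least 3 reads in both libraries the median ratio was 2.25.

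The cluster with miR-200b, miR-200a and miR-429 was led by miR-200a. Normalized values of miR-200a were 11.8, 0 and 52.5 at estrus and 0, 0 and 1.72 at diestrus, from 30, 0 and 292 reads and from 0, 0 and 1 reads. Estrus replicate 2 held no read of it and lay within the diestrus range. Its estrus share in animal 1 was 1.79-fold the diestrus floor. The intervals there overlapped, at 0.120% to 0.254% at estrus and 0 to 0.122% at diestrus. In animal 3 its share was 1.08% at estrus (292 reads) and 0.0198% at diestrus (1 read, interval 0.000501% to 0.110%). Without miR-1246 in the total, the estrus share in animal 1 was 0.180%, under the diestrus floor of 0.418%. The change was 2.66 with a standard error of 1.80 (95% interval -0.88 to 6.20), which is within the replicate error (limma, adjusted p = 0.552). It was 1.36 without estrus replicate 3 and 4.23 without estrus replicate 2 (limma, adjusted p = 0.498 and 0.0899, within a range of 0.0654 to 0.922 over 21 alternatives).

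The remaining 2 miRNAs of this cluster were seen at estrus only in replicates 1 and 3. miR-200b had 13, 0 and 105 reads at estrus and miR-429 had 4, 0 and 43 reads, and neither had a read in any diestrus library. Of all 273 listed miRNAs, 38.8% had no read at diestrus. In animal 3, where diestrus gave 5055 reads, the estrus share was 6.54-fold the diestrus floor for miR-200b and 2.68-fold for miR-429. Of the reads other than miR-1246, the estrus shares in animal 3 were 0.395% for miR-200b and 0.162% for miR-429, against a diestrus floor of 0.225%, so that miR-429 then lay under the floor. In animal 1 the estrus shares of the full total, 0.0770% and 0.0237%, lay under the diestrus floor of 0.0995%, so that a difference of that size was not detectable at this depth. Both fell under the filter, with means of 4.00 and 1.55.

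Summed over its 5 members, the miR-200 family held 0.853%, 0.0445% and 5.84% of the reads in estrus replicates 1, 2 and 3, and 0.0332%, 0.0360% and 0.0396% in diestrus replicates 1, 2 and 3. These sums did not overlap between phases, but estrus replicate 2, with 3 reads and an interval of 0.00917% to 0.130%, could not be told from the diestrus libraries at this depth. Over the reads other than miR-1246, the sums were 0.864%, 0.0556% and 5.95% at estrus and 0.139%, 0.0800% and 0.150% at diestrus, and the phases overlapped, with estrus replicate 2 the lowest library. The balance of the clusters could be read in estrus replicates 1 and 3, the 2 libraries with enough reads. The cluster with miR-200c and miR-141 supplied 67.4% of the family's 144 reads in estrus replicate 1 (interval 59.1% to 74.9%) and 72.1% of 1579 reads in estrus replicate 3 (69.9% to 74.3%). The ratio of miR-200a to miR-200b, which come from 1 cluster, was 2.31 (1.17 to 4.82) and 2.78 (2.22 to 3.51). Intervals overlapped in both cases. The ratio of miR-200c to miR-141, from the other cluster, was 4.11 (2.46 to 7.18) in estrus replicate 1 and 23.8 (17.7 to 32.7) in estrus replicate 3, and these intervals did not overlap. Read ratios between different miRNAs compare these libraries with each other, because library preparation may capture each miRNA with its own efficiency. By seed group, miR-200b, miR-200c and miR-429 summed to 95, 1 and 1241 reads in the estrus libraries and to 0, 2 and 0 in the diestrus libraries. For miR-200a and miR-141 these sums were 49, 2 and 338 in the estrus libraries and 1, 0 and 2 in the diestrus libraries.

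miR-375, which belongs to no family with the others, followed the same libraries. Its normalized values were 9.85, 0 and 118.6 at estrus, from 25, 0 and 659 reads, and it had no read in any diestrus library. Estrus replicate 2 and the diestrus libraries were thus alike at 0, and 96.3% of its reads came from estrus replicate 3. Its estrus share was 1.49-fold the diestrus floor in animal 1 and 41.1-fold the floor in animal 3. In animal 1 the intervals overlapped, at 0.0959% to 0.219% at estrus and 0 to 0.122% at diestrus. Without miR-1246 in the total, the estrus share was 0.150% in animal 1, under the diestrus floor of 0.418%, and 2.48% in animal 3, above the floor of 0.225%. The change was 3.45 with a standard error of 1.82 (95% interval -0.15 to 7.04; limma, adjusted p = 0.386). Because its diestrus values were all 0, the size of this change depends on the pseudocount and is no bound. It was 1.72 without estrus replicate 3, and 5.17 without estrus replicate 2, where it passed (limma, adjusted p = 0.0427, within a range of 0.0334 to 0.901 over 21 alternatives). miR-375 entered the test through the other estrus libraries, so passing without estrus replicate 2 was largely built in. The ratio of miR-375 to miR-200c was 0.321 (0.196 to 0.509) in estrus replicate 1 and 0.603 (0.547 to 0.665) in estrus replicate 3.

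miR-205 behaved differently. It was the 1 miRNA of the 7 with reads in all 6 libraries, with normalized values of 6.70, 14.5 and 54.9 at estrus and 19.9, 19.5 and 27.5 at diestrus, from 17, 8 and 305 reads and from 7, 12 and 16 reads. Estrus replicates 1 and 2 lay below all 3 diestrus libraries and estrus replicate 3 lay above them. Its mean normalized value was 25.3 ± 25.9 over the estrus libraries and 22.3 ± 4.48 over the diestrus libraries (SD, n = 3 per phase). The share of reads was 2.30-fold lower at estrus in animal 1 and 1.82-fold lower in animal 2, and 3.56-fold higher in animal 3. The change was -0.29 with a standard error of 1.45 (95% interval -3.15 to 2.56; limma, adjusted p = 0.918), an interval that allows a change of several-fold in either direction. Leaving out estrus replicate 1 turned the sign, to 0.35, and leaving out estrus replicate 3 gave -1.08 (limma, adjusted p = 0.888 and 0.471, within a range of 0.471 to 0.979 over 21 alternatives).

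The order of the libraries for miR-205 depended on whether miR-1246 was counted in the total. With miR-1246 left out of the total, miR-205 held 0.102%, 0.148% and 1.15% at estrus and 0.976%, 0.480% and 1.20% at diestrus. On that scale it was lower at estrus in animals 1 and 2. In animal 3 the values, from 305 and 16 reads, lay close together, and estrus replicate 3 lay between the diestrus libraries. When values were scaled to totals that exclude miR-1246, its change was -1.55 ± 1.54 (standard error; limma, adjusted p = 0.788), against a median of -0.19 over the 58 miRNAs.

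**Figure D2:**
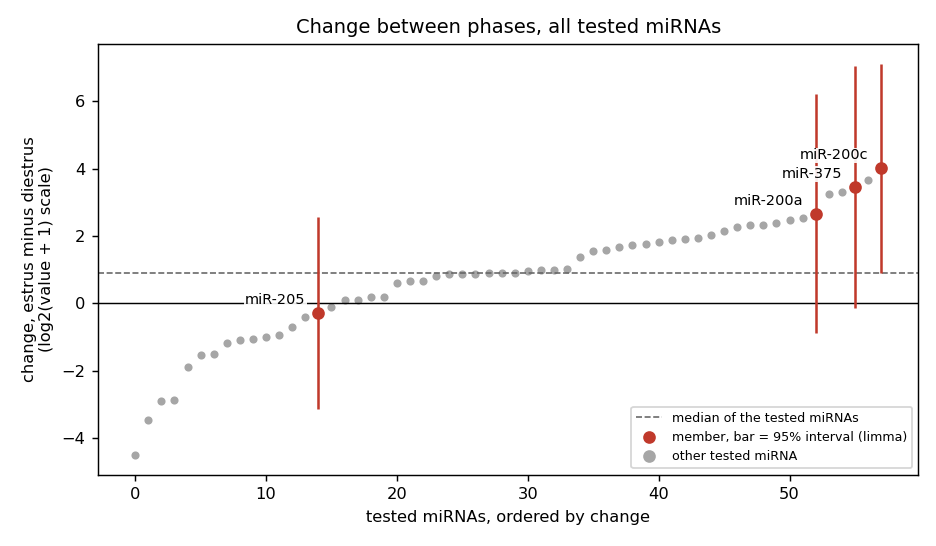
Change between phases (estrus minus diestrus, log2(value + 1) scale) of the 58 tested miRNAs in order of size; red points are the 4 tested miRNAs of this set with 95% intervals from limma, grey points the other miRNAs, and the dashed line the median of 0.90. miR-200c has the highest change, at 4.00, and miR-205 lies below the median, at -0.29. miR-200c, miR-375 and miR-200a entered the test through the estrus libraries in which they were high, so large positive changes were built in.

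Counted together, 4 of the 7 miRNAs passed the filter, and 3 of these, miR-200a, miR-200c and miR-375, did so through estrus replicates 1 and 3. None of the 4 passed an adjusted p-value below 0.05, as 0 of all 58 miRNAs did (0.0%; limma). At an unadjusted p-value below 0.05, 1 of the 4 passed, miR-200c, against 8 of 58 (13.8%), of which 4 (6.9%) were higher and 4 (6.9%) lower at estrus. Under other scalings that split was 6 higher and 1 lower for CPM of the column total, and 1 higher and 4 lower after median centring. The unadjusted p-value of miR-200c was 0.0671 without estrus replicate 1, 0.114 without estrus replicate 3 and 0.0573 without diestrus replicate 3 (limma). It stayed below 0.05 when any 1 of the other samples was left out. The median change of the 58 miRNAs was 0.90, and relative to it the changes were 3.11 for miR-200c, 2.55 for miR-375, 1.76 for miR-200a and -1.19 for miR-205. The first 3 had at most 2 reads in any diestrus library and entered the test through the libraries in which they were high. A large positive change was therefore built in, and neither its sign nor its size against the 58 miRNAs supports anything. The change of miR-205 was negative in all but 2 of 21 alternatives. In the fit of all 273 miRNAs with no filter, 4 of the 7 had an unadjusted p-value below 0.05, miR-200a, miR-200b, miR-200c and miR-375, against 16 of 273 (5.86%), and none passed after adjustment (limma, adjusted p from 0.458 to 0.920). Without estrus replicate 3, an omission chosen after the data were seen, 0 of the 7 had an unadjusted p-value below 0.05, against 9 of 273 (3.3%), and the p-values of those 4 were 0.380, 0.220, 0.136 and 0.231 (limma). That fit used 4.44 degrees of freedom, against 1092 with all 6 libraries. No fit of all 273 miRNAs left out estrus replicate 1 or a diestrus library. Whether the 4 calls rested on estrus replicate 3 alone was therefore not tested. In the fit of all 273 miRNAs and 6 libraries the changes of the 3 miRNAs under the filter were 2.31 for miR-200b, 1.71 for miR-141 and 1.50 for miR-429. Without estrus replicate 3 they were 1.31, 1.52 and 0.68, and without estrus replicate 2 they were 3.46, 2.02 and 2.25.

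Leaving out estrus replicate 2 was the omission that brought adjusted p-values below 0.05. Then 2 of the 4 tested miRNAs passed, miR-200c and miR-375, and 6 of all 58 did (10.3%; limma). Both miR-200c and miR-375 entered the test through the other estrus libraries, in which they were high. The omitted library was the estrus library in which they were lowest. Passing without it was therefore largely built in, and the comparison with all 58 supports nothing. Without that library and without the mean-variance trend, adjusted p-values were 0.0515 for miR-200c and 0.0598 for miR-375, and with it left out and values scaled to the total without miR-1246 they were 0.0584 and 0.156 (limma). With it left out and values taken as shares of the column total they were 0.00595 and 0.0334 (limma). With it left out and no filter on low values, both were 0.201 (limma, over 273 miRNAs). These 4 combinations were chosen after the data were seen.

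**Figure D3:**
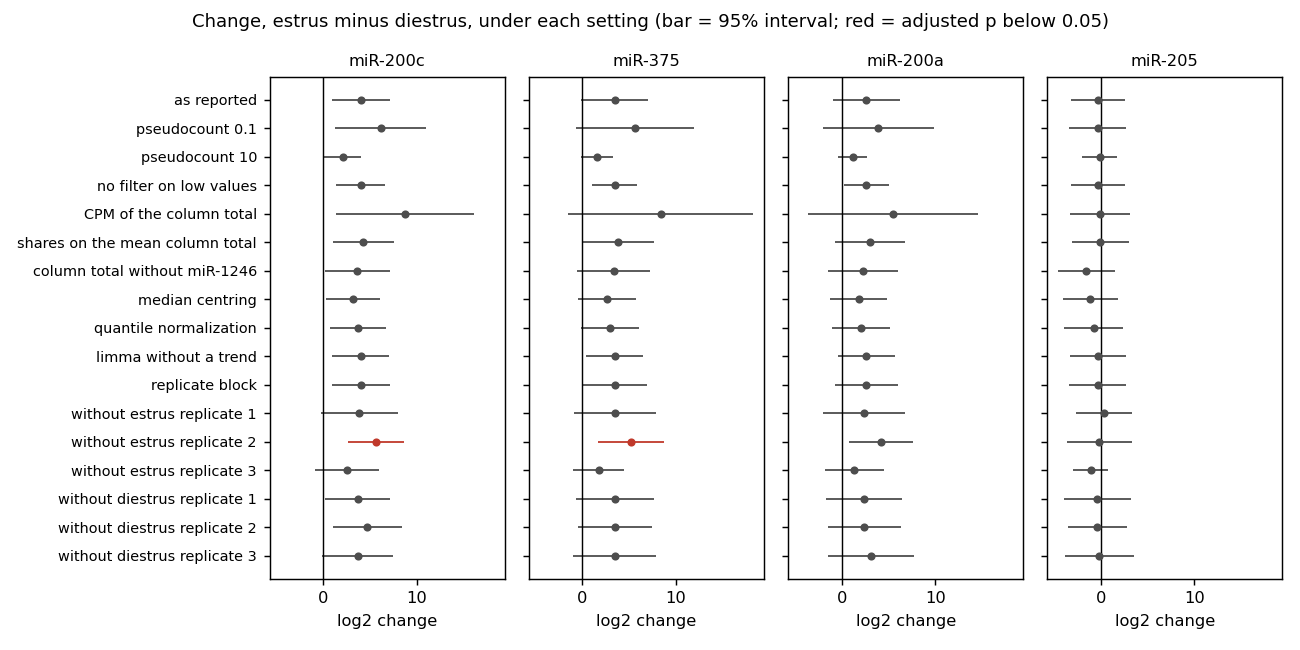
Change of the 4 tested miRNAs (estrus minus diestrus, log2 scale) as reported and under the alternatives that change 1 choice and keep them in the test; points are estimates, bars 95% intervals from limma, and red marks an adjusted p-value below 0.05. Red appears in 1 setting, without estrus replicate 2, for miR-200c (5.61) and miR-375 (5.17), and the points of miR-205 lie near or below 0 in most settings. miR-200c and miR-375 entered the test through the other estrus libraries, so passing in that setting was largely built in.

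Correlations over the 6 libraries describe the same pattern of high and low libraries. miR-200a, miR-200c and miR-375 passed the filter through estrus replicates 1 and 3 and were near 0 in the other 4 libraries, so high correlations among them were fixed by that choice, and miR-205 was set apart after its values were seen. On log2(value + 1), Pearson correlations were 0.97 between miR-200a and miR-375, 0.96 between miR-200c and miR-375 and 0.90 between miR-200a and miR-200c. Correlations of miR-205 with them were 0.31, 0.21 and 0.36 for miR-200a, miR-200c and miR-375. Among tested miRNAs outside the set, let-7f (0.93) and miR-30d (0.93) were most like miR-200a, and let-7f (0.95) and miR-423-5p (0.93) were most like miR-200c. For miR-375 these were let-7f (0.99) and miR-184 (0.98), and for miR-205 they were miR-25 (0.92) and miR-191 (0.88). The mean of the 4 was most like miR-184 (0.98), let-7f (0.98), miR-30d (0.97), miR-125b (0.93) and miR-423-5p (0.92). All these points share 6 libraries, their scaling and their depth, and miR-184, for example, had 5, 0 and 233 reads at estrus and none at diestrus. Estrus replicate 3 was the highest library for 25 of the 58 tested miRNAs (43.1%), and it held more than 1 part in 2 of the normalized sum for 22 of them (37.9%). For miR-200a, miR-200c and miR-375 it held 79.5%, 84.6% and 92.3% of that sum, and for miR-205 it held 38.4%, against a median of 15.6% over the 58.

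Markers of other sources were read in the same libraries. Of 11 further miRNAs known from epithelia, including the miR-183 cluster, miR-31 and miR-449a, 7 had a row and 0 passed the filter. Their summed share was 0.0356%, 0.0148% and 0.318% at estrus. At diestrus it was 0 in replicates 1 and 2, where the floor of 3 reads was 0.0995% and 0.0541%, and 0.0396% in replicate 3. The sum was highest in estrus replicate 3, the deepest library. Of the 7, 6 had no diestrus read, where 38.8% of all 273 listed miRNAs had none. A further limit is that 4 of the 7 had reads in estrus replicate 3 alone, at most 4 each. miR-182, a member of the miR-183 cluster, had 1, 1 and 31 reads in the estrus libraries and 0, 0 and 2 in the diestrus libraries. The 5 stromal rows (miR-143, miR-145, the arms of miR-199a, and miR-214) summed to 0.0148% to 0.0741% at estrus and 0.0593% to 0.166% at diestrus, at most 5 reads in any library. Erythrocyte markers were matched by 3 of 5 names, with no row for miR-451 or miR-144. They summed to 0.0652%, 0.0445% and 2.57% at estrus and 0.0180% to 0.0791% at diestrus. Without miR-1246 in the total, the order in animal 1 reversed, to 0.0660% at estrus and 0.139% at diestrus (11 reads and 1 read). Animals 2 and 3 stayed higher at estrus. In estrus replicate 3, miR-16a, which many cell types express, gave 579 of those 696 reads, and miR-486, the more erythroid marker, gave 8.

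The leukocyte list was carried by miR-223, with 1086 of its 1186 reads. All 6 names had a row, and they summed to 0.575%, 1.07% and 2.31% at estrus and 3.68%, 1.77% and 3.64% at diestrus, lower at estrus in each animal. The filter kept 2 of them. Of these, miR-142-5p had an unadjusted p-value below 0.05, lower at estrus as for 6.9% of the 58 miRNAs, miR-223 did not, and neither passed after adjustment (limma). Without estrus replicate 2, miR-142-5p passed, with a change of -4.39 (limma, adjusted p = 0.0427), in the same fit in which miR-200c and miR-375 passed in the opposite direction. It did not pass in the other fits without that library, including the one on shares, in which miR-200c and miR-375 passed. miR-155 and miR-150 had 20 and 16 reads in estrus replicate 3 and none in the other 5 libraries. The part of erythrocyte, leukocyte or other RNA in the values of the miR-200 family, miR-205 and miR-375 was not tested.

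**Figure D4:**
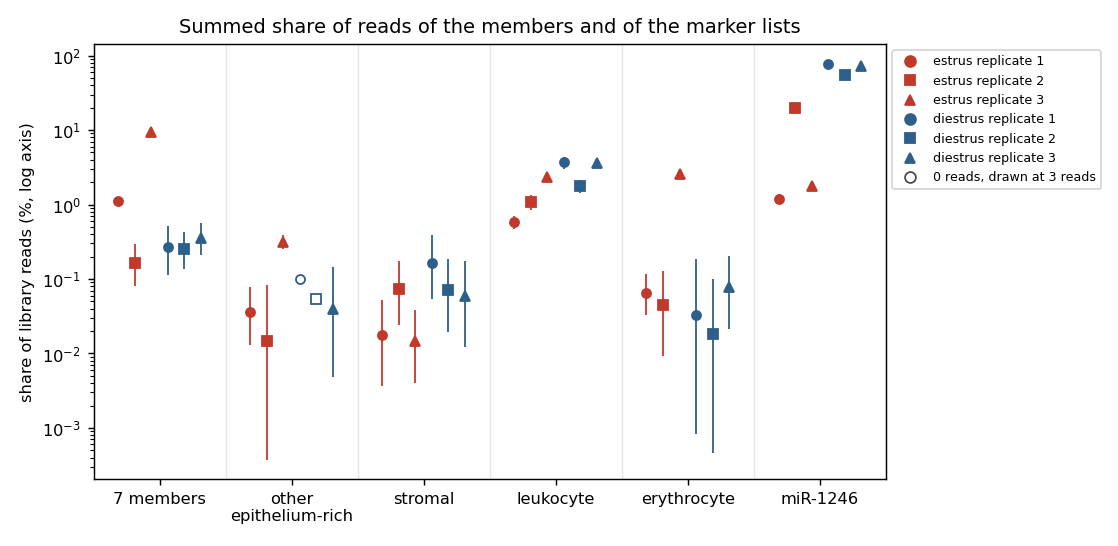
Summed share of library reads (%, log axis) of the 7 miRNAs, of 4 lists of marker miRNAs and of miR-1246 in the 6 libraries, with exact 95% binomial intervals; red marks estrus, blue marks diestrus, and open symbols are libraries with 0 reads, drawn at 3 reads. Estrus replicate 3 (red triangles) is highest for the 7 miRNAs (9.41%), the other epithelium-rich miRNAs (0.318%) and the erythrocyte list (2.57%), while miR-1246 is above 50% in the diestrus libraries alone.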

How the data were processed

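Small RNA was sequenced from cell-free saliva with the QIAseq miRNA kit, which adds molecular indices at reverse transcription, per the labels' protocols. The deposited table holds counts per miRNA divided by 1 size factor per sample, a normalized signal. The 6 size factors, recomputed as medians of ratios over the 43 miRNAs above 0 in every library, equalled those of the deposited columns. The submitters' processing notes name cutadapt, FastQC, UMI-tools, Bowtie, SAMtools, featureCounts and DESeq2; the role of each, the genome build and the miRNA reference are not given in the sources used here. Whether indices were collapsed is likewise not given. Sequences and positions were not analysed here.

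Each column was divided by its step, and 100% of values came out whole within 0.001 reads. Since 3 columns hold fewer than 100 low values, too few for the check applied to such recovered reads, they served for description only and no count model was fitted. limma 3.58.1 (R 4.3.3), with a mean-variance trend, was fitted to log2(value + 1) of the 58 of 273 miRNAs with a mean of at least 5, with Benjamini-Hochberg adjustment over the 58. Each test used 232 degrees of freedom, because limma found no spread of variances beyond the trend. Its recovery of changes of known size was checked on simulated data. There the libraries of a phase shared 1 mean per miRNA before scaling to depth, unlike these data, so the check says little about its performance here. Shares, exact binomial intervals and figures came from Python 3.11.15 (scipy 1.17.1, pandas 2.3.3, matplotlib 3.10.9).

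The animal number in the labels pairs the samples. After subtraction of phase means, the 2 samples of an animal correlated at -0.0046, 0.37 and 0.30. Samples of different animals correlated at -0.41 to 0.34, a range that overlaps these values, so a likeness within animals was not shown. Alternatives were a replicate block, other pseudocounts (0.1, 10), filters (none, 50) and scalings, limma without a trend, and omission of each sample. All 7 miRNAs are named by rule, with the 2 tested miRNAs most correlated with each of the 4 tested ones and the 5 most correlated with their mean. The members, lists and tests were chosen with earlier results of these data known.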

Additional observations from a re-analysis of the deposited data

How the results depend on the processing

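At an adjusted p-value below 0.05, 0 miRNAs passed as reported (8 unadjusted; limma). This number was 1 for shares on the mean column total, 1 for the column total without miR-1246 and 1 after quantile normalization. That 1 was miR-1246 in each. The count ranged from 0 to 6 over fits without 1 sample, with 6 without estrus replicate 2. Without that sample it was 1 with no filter, 1 without a trend, 1 for the total without miR-1246 and 6 for shares. The unadjusted count of 8 was 16 with no filter, 2 for miRNAs averaging 50 or more, 2 when the pseudocount was 10, and 5 each for the total without miR-1246, median centring and quantile normalization. It ranged from 0 to 11 without 1 sample. Without estrus replicate 2 it was 46 with no filter, 13 without a trend and 15 for shares.

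The change of miR-205 reversed to 0.35 without estrus replicate 1 and to 0.44 for shares without estrus replicate 2, and ranged from -1.08 to 0.35 without 1 sample. miR-200c, at 2.54 to 5.61 without 1 sample, passed at 5.61 and 6.19, and miR-375, at 1.72 to 5.17, passed at 5.17 and 5.71, in each case without estrus replicate 2 and, for the second value, for shares. Both miRNAs entered the test through the other estrus libraries, so passing without estrus replicate 2 was largely built in. The cause was not tested. The replicate block (animals paired) left the adjusted count at 0 and gave 6 unadjusted, and it changed no call among the 4 tested miRNAs. The other 78 of 84 changes kept direction and side of the threshold. The difference in summed share ranged from 0.341 to 4.96 percentage points without 1 sample. No member has a mean of 50, so that filter gave none a value. edgeR and DESeq2 were not run. Combinations with an omitted sample were chosen after the data were seen. At diestrus, each of the 7 miRNAs but miR-205 had at most 2 reads per library.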
